A study of Oryza sativa with 6 samples.

Results

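Acetylation of histone H3 at lysine 9 (H3K9ac) was compared between leaves of rice (Oryza sativa) infested for 3 h with Spodoptera frugiperda, the fall armyworm, and leaves of control seedlings. The members are the H3K9ac regions on the 12 nuclear chromosomes that were called in at least 1 of 4 peak lists, from 2 libraries at 3 h and 2 control libraries. Any intervals sharing 1 bp or more between these lists were joined, which gave 14863 regions, against 17468 when both 12 h libraries of the study were merged in as well. All 6 libraries came from leaf nuclei of greenhouse-grown seedlings 20 days old and were made by CUT&Tag with an H3K9ac antibody. The labels name no cultivar and do not say whether a library holds 1 plant or several, or whether the replicates are separate plants. The spread given is therefore that between these libraries and could be technical. The values cover all leaf cell types together, so that fewer cells carrying the mark and less of the mark per cell cannot be told apart. No gene names, markers or sequences are given because no annotation of the files' build, IRGSP-1.0, was used here.

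H3K9ac is laid down by histone acetyltransferases and removed by histone deacetylases. In plants it lies mainly around the start and the first part of transcribed genes, and its level tends to follow their transcription. In CUT&Tag an antibody brings a transposase to the marked nucleosomes, which cuts and tags the DNA there, so that read coverage builds up over the mark. Chewing insects start a wound and jasmonate response in leaves, in which defence genes are switched on within hours.

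Both 3 h lists held more regions than both control lists. The lists at 3 h held 10460 and 12234 distinct regions, and the control lists 4671 and 5174. The mean was 11347 ± 1254 at 3 h and 4922.5 ± 356 in control leaves (SD, n = 2 each), a ratio of 2.31. The groups did not overlap, but 2 against 2 libraries cannot give a two-sided exact permutation p below 0.333. That p was obtained here and for the other 5 single values tested over libraries, and it remained 0.333 after adjustment over the 6. The calls covered 6.88 and 8.11 Mb at 3 h and 3.04 and 3.49 Mb in control leaves, with median widths of 579 and 586 bp at 3 h and 563 and 590 bp in control leaves. The total reads per library are unknown. The genome background, the even coverage against which the peak caller judged a summit and which grows with the number of reads, was 2.13 and 2.32 fragments at 3 h and 2.43 and 2.004 in control leaves, and overlapped between the groups. The weakest peak accepted had a −log10 p of 2.95 and 2.89 at 3 h, against 3.21 and 3.18 in control leaves, while the lowest −log10 q lay between 1.302 and 1.313 in the 4 lists.

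Most regions of the control leaves were found again at 3 h. Of the 14863 regions, 2896 (19.5%) were called in all 4 lists. Another 3376 (22.7%) had a call in both 3 h lists but in no control list, whereas 93 (0.626%) were called in both control lists and neither 3 h list. Of the 3199 regions of both control lists, 90.5% belonged to both 3 h lists. Of the 8220 regions of both 3 h lists, 35.2% belonged to both control lists. Regions of a single list were common in both groups, with 5029 in 1 of the 3 h lists and 708 in 1 of the control lists. With every list shortened to its 4671 most significant regions, 564 regions were called only at 3 h and 544 only in control leaves; equal lengths by themselves bring these counts close to each other, so they do not bear on the excess.

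**Figure D1:**
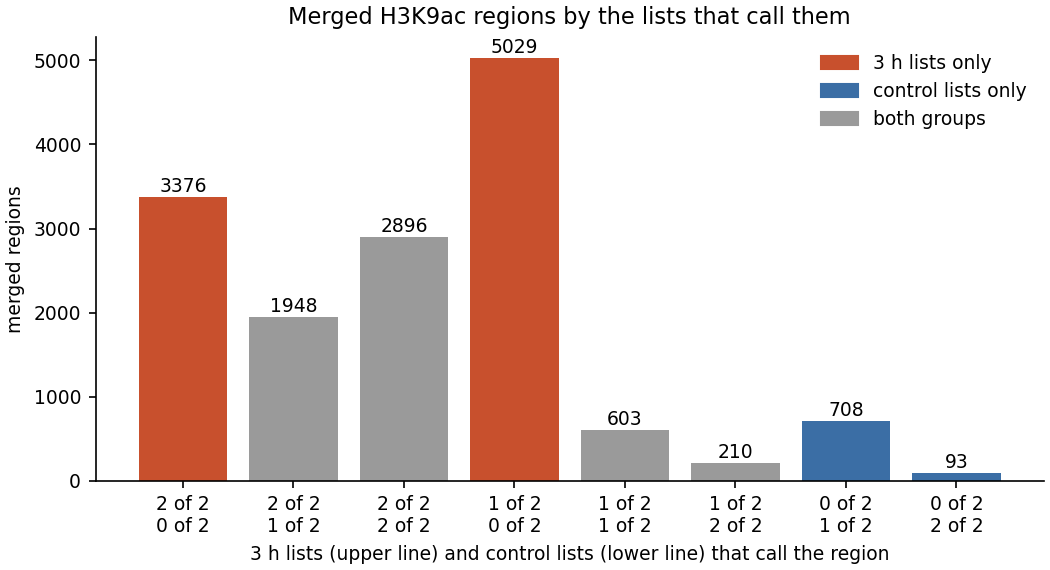
Number of merged H3K9ac regions (vertical axis) by how many of the 2 lists at 3 h and of the 2 control lists call them (horizontal axis); red bars are regions of 3 h lists only, blue bars of control lists only, grey bars of both groups. The bar for both 3 h lists and no control list stands at 3376, against 93 for both control lists and no 3 h list.

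The 2896 regions called in all 4 lists were on the whole wider at 3 h. Their median called width was 878 and 933.5 bp at 3 h and 684.5 and 728 bp in control leaves, a mean of 905.75 ± 39.2 bp at 3 h and 706.25 ± 30.8 bp in control leaves (SD, n = 2 each) and a ratio of 1.28. Each 3 h list was wider than each control list, also region by region: in the 4 pairings of a 3 h list with a control list, between 68.4% and 77.6% of the regions were wider at 3 h. The regions held more than 1 summit in 28.1% and 32.2% of cases at 3 h and in 14.7% and 14.0% in control leaves. The difference of 15.8 percentage points had an exact p of 0.333, as did the width ratio. Widths were larger at 3 h at weak and strong regions alike. With the regions split into 3 equal groups by their mean strength over all 4 libraries, the width ratio was 1.29 in the weakest, 1.28 in the middle and 1.13 in the strongest group.

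**Figure D2:**
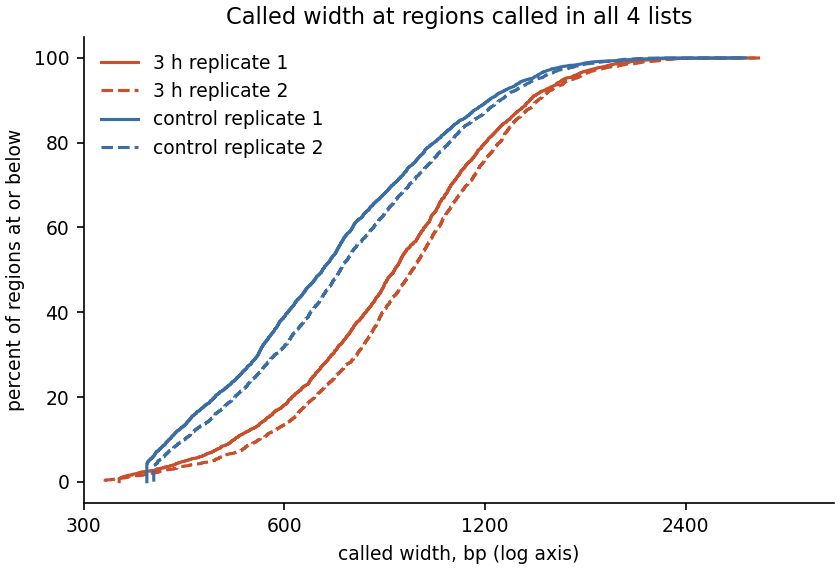
Cumulative percent of the 2896 regions called in all 4 lists (vertical axis) at or below a given called width in bp (horizontal axis, log scale), 1 line per library. Both 3 h lines, with medians of 878 and 933.5 bp, lie to the right of both control lines, with medians of 684.5 and 728 bp, over most of the range.

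Tested region by region, no width difference passed. In limma on log2 width, 0 of the 2896 regions were called wider and 0 narrower at 3 h (0% each) at an adjusted p of 0.05, and the smallest adjusted p was 0.0862. Without adjustment, 579 regions (20%) were wider and 62 (2.14%) narrower at p under 0.05. Both 3 h widths were above both control widths in 1424 regions (49.2%), and below them in 224 (7.73%). Only regions whose groups do not overlap in this way are named, here and for rank and coverage. That trait of the named regions is therefore built in. The region on chr6:10469624-10471318 was among the 6 wider regions with the smallest p: it spanned 1671 and 1690 bp at 3 h and 426 and 434 bp in control leaves. Both 3 h calls thus took in several times the length of both control calls (log2 difference 1.97 ± 0.18 SE, limma adjusted p = 0.0862). The region on chr12:24455262-24457502 had the largest log2 difference of the 6, 2.32 ± 0.21 (SE, limma adjusted p = 0.0862), with 1817 and 2241 bp at 3 h and 390 and 419 bp in control leaves. Among the 6 narrower regions, that on chr9:14800933-14802191 had the smallest p, with 361 and 385 bp at 3 h and 1078 and 1097 bp in control leaves. Its log2 difference was -1.54 ± 0.19 (SE, limma adjusted p = 0.0873).

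The order of the regions by strength was not shown to change. The strength used was the authors' fold value of the highest summit, which is the coverage at the summit over the local background, ranked within each list among the 2896 regions. In limma on normal scores of these ranks, 0 regions were higher and 0 lower (0% each), with a smallest adjusted p of 0.340. At an unadjusted p under 0.05, 157 regions (5.42%) were higher and 173 (5.97%) lower. Both 3 h ranks were above both control ranks in 588 regions (20.3%) and below them in 682 (23.5%). The values below give the percentile of a region in that ranking, with 100 the strongest.

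The region on chr2:5804815-5806328 had the smallest p among those with a higher rank. It stood at percentiles 95.8 and 84.4 at 3 h and 3.64 and 4.66 in control leaves, so that a region near the bottom of both control lists was among the stronger ones in both 3 h lists. Its limma adjusted p was 0.340. The region on chr6:10469624-10471318 was similar, with percentiles of 80.1 and 75.6 at 3 h, against 4.25 and 2.47 in control leaves. Another, on chr9:4042351-4043497, stood at 95.1 and 90.2 at 3 h and 16.7 and 21.4 in control leaves. Among the regions of lower rank, that on chr4:26617550-26618963 had the smallest p. It stood at percentiles 0.501 and 0.397 at 3 h and 63.0 and 30.1 in control leaves, and was called in neither 12 h list. The region on chr3:31591401-31592173 stood at 25.8 and 21.0 at 3 h and 94.5 and 95.3 in control leaves, near the top of both control lists. None of the 16 regions named by this rule passed the adjusted limit.

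A lower rank did not always go with less coverage, because the fold value is divided by the local background. On chr9:18038413-18039095 the percentiles were 6.75 and 14.5 at 3 h and 80.4 and 82.5 in control leaves. The summit coverage there, in multiples of the genome background, was nevertheless 12.2 and 12.95 at 3 h and 8.63 and 9.98 in control leaves. Its local background was 3.69 and 3.51 times the genome background at 3 h and 1.53 and 1.60 times in control leaves. Both the summit coverage and the local background were thus higher at 3 h, and the local background more so. Whether this background includes reads of the peak itself is not known, since input use is not stated. The region on chr1:1338197-1339139 had the same pattern, with coverage of 16.9 and 12.5 at 3 h, against 9.46 and 9.48 in control leaves, and a local background of 5.36 and 4.84 at 3 h, against 1.78 and 2.14 in control leaves.

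For this reason the summit coverage itself was examined. This measure was added after the fits of rank and width had called no region, and its calls depend on how it is scaled. The whole number of fragments at each summit was recovered from the deposited fold and p-value, and was divided by the genome background of its list. Over the 2896 regions the median was 10.4 and 9.93 times background at 3 h and 7.40 and 8.98 times in control leaves, a ratio of the means of 1.24 with an exact p of 0.333. In limma on log2 values, 283 regions (9.77%) were higher at 3 h and 47 (1.62%) lower at an adjusted p under 0.05. At an unadjusted p under 0.05, 712 (24.6%) were higher and 114 (3.94%) lower. Both 3 h values were above both control values in 1440 regions (49.7%) and below them in 283 (9.77%). The median region had a log2 difference of 0.29. With each list centred on its own median, which removes this shift, 19 regions were higher and 67 lower. Without the first 3 h library 0 were higher and 0 lower, without the second 1 was higher and 0 lower, and without the second control library 711 were higher. With the peaks of a −log10 q of at least 5 alone, 70 were higher. The counts therefore cannot be read as the number of changed regions. The 16 regions named here kept their direction and their adjusted p under 0.05 after the centring. They are not exempt from the other limits: with either 3 h library left out they kept their direction, but did not all keep that adjusted p.

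**Figure D3:**
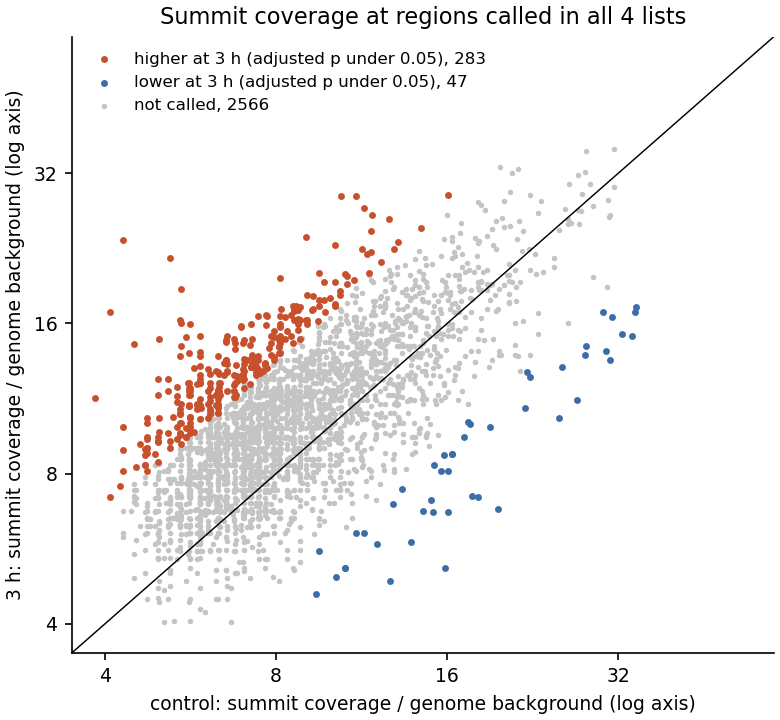
Summit coverage over genome background at the 2896 regions called in all 4 lists, geometric mean of the 2 libraries at 3 h (vertical axis) and of the 2 control libraries (horizontal axis), both on log scales; 1 point per region, coloured by the limma call, with the line of equal values. More points lie above the line, 283 of them called higher, and the 47 called lower lie below it.

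The region on chr2:5804815-5806328, which also had the smallest p by rank, had the smallest p by coverage. Its summit coverage was 27.8 and 19.9 times background at 3 h and 3.70 and 4.99 in control leaves. Both 3 h libraries were far above both control libraries, 5.47-fold on the mean of the logs (log2 difference 2.45 ± 0.26 SE, limma adjusted p = 8.47e-07). It was called over 1358 and 1496 bp at 3 h and 422 and 526 bp in control leaves. Both 12 h libraries, at 24.2 and 28.0, lay in the range of the 3 h libraries or just above it. The 12 h lists had a lower genome background, 1.49 and 1.43 fragments. Their median summit coverage over all their regions was higher, at 8.73 and 9.10 times background. That median was 7.53 and 6.91 at 3 h and 6.58 and 7.48 in control leaves. Coverage at 12 h, here and below, was not corrected for this. The region on chr6:10469624-10471318 had 16.0 and 17.7 times background at 3 h and 3.70 and 4.49 in control leaves, a 4.13-fold difference (limma adjusted p = 5.31e-06). On chr1:26033530-26034814 the coverage was 19.3 and 24.2 at 3 h and 4.93 and 5.49 in control leaves, 4.15-fold apart (limma adjusted p = 5.31e-06), and 36.3 and 38.5 at 12 h. At all 8 regions named for higher coverage the control values, from 3.70 to 5.99, were toward the lower end of what was called at all. The 5th percentile of coverage in the control lists was 4.52 and 4.99. Chromosome 7 held 2 of the 8 named regions, close to each other. That on chr7:25348249-25350019 had 19.8 and 17.7 at 3 h and 4.93 and 5.99 in control leaves, and that on chr7:25591353-25592799 had 16.9 and 12.5 at 3 h and 4.52 and 4.49 in control leaves. The remaining 3, on chr11:4820848-4822021, chr10:16036300-16038035 and chr11:2789112-2790005, differed 2.94-fold to 2.98-fold. Both regions on chromosome 11 were lower at 12 h than the higher of their 3 h values: the first had 16.0 and 13.8 at 3 h, and 10.7 and 9.10 at 12 h.

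Regions of lower coverage were the fewer in the uncentred fit, and the more numerous with centred lists, as given above. On chr1:36626179-36626970 the coverage was 5.18 and 5.18 times background at 3 h and 16.9 and 14.97 in control leaves. It was 3.07-fold lower at 3 h (log2 difference -1.62 ± 0.25 SE, limma adjusted p = 0.000191). The region on chr11:28934037-28935926 had 5.65 and 8.20 at 3 h and 18.9 and 20.5 in control leaves, 2.89-fold lower, and was called over 339 and 902 bp at 3 h and 1388 and 1548 bp in control leaves. On chr9:14800933-14802191, the region with the smallest p among the narrower ones, coverage was 5.65 and 6.04 at 3 h and 12.7 and 14.97 in control leaves, and neither 12 h list called it. Other regions were low only at the 3 h time. On chr12:20927680-20928275 the coverage was 7.53 and 6.91 at 3 h and 16.4 and 19.0 in control leaves, and 36.3 and 25.9 at 12 h. On chr10:10878722-10879389 it was 10.4 and 10.4 at 3 h and 27.5 and 23.0 in control leaves, and 32.9 and 31.5 at 12 h.

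**Figure D4:**
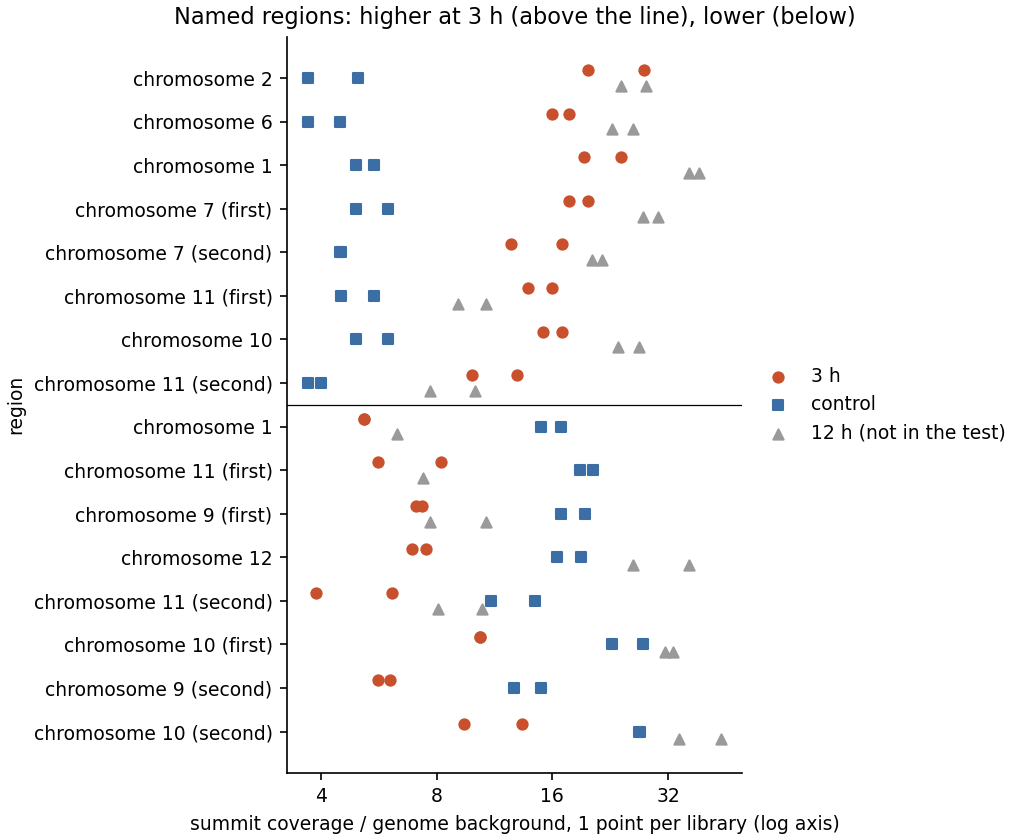
Summit coverage over genome background (horizontal axis, log scale) at the 8 regions with the smallest p among those higher at 3 h (above the line) and the 8 lower (below it), named by chromosome, with 1 point per library for 3 h (red circles), control (blue squares) and, outside the test, 12 h (grey triangles; absent where the list has no call). At chromosome 2 the 3 h points stand at 19.9 and 27.8 and the control points at 3.70 and 4.99.

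The measures from the same peaks moved together at the called regions, which is a description, since width, rank and coverage come from the same reads. Of the 283 regions of higher coverage, 226 were wider in both 3 h lists than in both control lists and 0 narrower, 202 were higher in rank and 9 lower, and 266 had a higher local background. Their coverage was 1.67-fold to 5.47-fold higher, with a median of 1.88-fold. Their median width was 994 and 1020 bp at 3 h and 589 and 677 bp in control leaves. Of the 47 regions of lower coverage, 37 were narrower in both 3 h lists and 1 wider, 37 were lower in rank and 1 higher, and 47 had a lower local background. Their coverage was 1.70-fold to 3.07-fold lower, with a median of 2.01-fold. Both 12 h lists called 279 of the 283 higher regions, and 273 of these had both 12 h values above both control values. Of the 47 lower regions, 37 were called in both 12 h lists. Of the 37, 30 had both 12 h values above both 3 h values, 16 above both control values and 13 below both control values. The 12 h libraries did not enter the choice of these regions, but the 3 h and control values did, and the same values were used again in these comparisons. The corresponding shares over all tested regions were not computed. The 12 h counts therefore do not show a course at 12 h that is particular to the called regions, higher or lower.

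The 3376 regions called in both 3 h lists and no control list were of middling strength. Their median fold was 3.70 and 3.67 and their median percentile within the 3 h lists 46.3 and 49.1, with a median width of 530 and 571 bp. Only 45 of them (1.33%) lay in the strongest 10% of both 3 h lists, against 405 (14.0%) of the regions called in all 4 lists. Above the median of both 3 h lists were 932 (27.6%). Both 12 h lists also called 2050 (60.7%) of them, 1 of the 12 h lists called 894 (26.5%), and 432 (12.8%) were in neither. The same shares over all merged regions were not computed. These counts therefore do not show a course at 12 h that is particular to the regions called only at 3 h. A missing call in a control list does not show absence of the mark: with a −log10 q of at least 5 asked of every list, the regions called only at 3 h numbered 1501. Such regions numbered 6770 without the first 3 h library and 5255 without the second. There a call in the remaining 3 h list alone was enough, so a higher count is built in.

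The strongest of them, by the lower of the percentiles in the 3 h lists, was on chr7:3662326-3663687. Its fold was 6.78 and 6.97 at 3 h, its coverage 15.1 and 14.2 times background, and the nearest control interval lay 96392 bp away. It thus stood near the top of both 3 h lists, at percentiles 98.9 and 99.2, and both 12 h lists called it, with folds of 4.93 and 6.19. The region on chr4:3766441-3767586 had folds of 7.36 and 6.63 at 3 h, a local background no higher than the genome's, and no control interval within 148417 bp. On chr2:2159995-2160819 the folds were 7.18 and 6.45, and a control interval lay 6588 bp away. Others among the 10 strongest were on chr1:41854089-41855170, chr10:798473-799579 and chr6:14647303-14648091, and their coverage at 12 h, between 16.8 and 26.6 times background, was above that of both 3 h libraries, which lay between 9.50 and 14.2. Coverage was also higher at 12 h on chr2:2159995-2160819 and chr8:6838180-6838815. These comparisons with 12 h were not corrected for the higher median coverage of the 12 h lists given above. Both 12 h values were below both 3 h values on chr7:3662326-3663687, chr4:3766441-3767586, chr10:10176857-10177334 and chr5:15470937-15471821. On chr5:17267100-17267551 the values overlapped. All 10 were called in both 12 h lists.

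The regions called only at 3 h were spread over all chromosomes. Their share by chromosome, from 13.9% on chromosome 1 to 5.48% on chromosome 9, was close to that of the regions called in all 4 lists, of which 13.5% were on chromosome 1 and 5.52% on chromosome 9. The median distance to the nearest control interval was 18680 bp, 73 regions (2.16%) lay within 1 kb of one and 130 over 100 kb from any. Runs of at least 2 neighbouring regions of this kind numbered 777 and held 1999 (59.2%) of the regions. The share that a random order of the regions would give was not computed, so clustering is not shown. The longest runs held 7 regions, on chr1:8340708-8418928 and chr5:17853139-18019200. In 367 windows of 1 Mb with at least 15 merged regions, a median of 22.4% of the regions were called only at 3 h. The highest share, 47.4%, was in the window chr9:9000001-10000000, which had 13 and 17 regions at 3 h and 0 and 2 in control leaves. In 364 of the 367 windows more regions were called in both 3 h lists than in both control lists. The greater length of the 3 h lists makes such a count likely, so it says little about position.

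The 93 regions called in both control lists and no 3 h list were of middling strength, and 6 of them lay in the strongest 10% of both control lists (6.45%, against 217 or 7.49% of the regions called in all 4 lists). The median percentile was 43.3 and 41.0 in the control lists, and the median coverage 6.99 and 7.98 times background. Their number was 163 without the first and 242 without the second 3 h library, and 458 without the first and 461 without the second control library. Leaving out a library loosens the rule for this class, so a higher count is built in and does not show dependence on that library. Both 12 h lists called 28 (30.1%) of the 93, and 46 (49.5%) were in neither. The same shares over all merged regions were not computed, so a lasting loss is not shown. The strongest was on chr4:9132966-9133590, with a fold of 10.2 and 6.66 and a coverage of 14.0 and 9.48 times background in control leaves. No 3 h interval lay within 55103 bp, and at 12 h its fold was 14.1 and 9.90, above or near the control values. Next came chr12:20498915-20499832, with control folds of 6.99 and 6.66, and chr2:14252957-14253419, with 7.46 and 6.29. The 12 h lists both held 7 of the 8 strongest.

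Most of these strong control-only regions lay in a few places, which were singled out after their values were seen. Of the 8 strongest, that on chr4:32884955-32885525 lay in none of these places. On chr12:20498915-20661736 there were 12 merged regions within 163 kb, of which the 3 h lists called 5 and 7, the control lists 12 and 10, and the 12 h lists 10 and 9. On chr10:10806829-10919804 there were 10, of which the 3 h lists called 6 and 7, the control lists 10 and 8, and the 12 h lists 8 and 8. On chr2:14243836-14285445 the 3 h lists called 1 and 2 of 6 regions, the control lists 6 and 5, and the 12 h lists 6 and 5. On chr4:9105646-9156704 the 3 h lists called 0 and 0 of 3 regions, the control lists 3 and 3, and the 12 h lists 2 and 2. The direction at all 4 loci was thus opposite to that of the lists as a whole, and 0 regions in them were called only at 3 h.

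At the loci on chromosomes 12 and 10 the local background was lower at 3 h as well. Because input use is not stated, it may include reads of the peaks themselves. It is therefore not shown to be a feature separate from the lower summits. At the 5 regions of the chromosome 12 locus that all 4 lists called, the median local background was 1.00 and 1.00 times the genome background at 3 h and 1.90 and 2.06 in control leaves. At the 6 such regions of the chromosome 10 locus it was 1.00 and 1.02 at 3 h and 2.38 and 2.173 in control leaves. Over all 2896 regions the median local background was 1.93 and 1.94 at 3 h and 1.67 and 1.77 in control leaves, and the same limma fit called it higher in 266 (9.19%) and lower in 72 (2.49%), while both 3 h values were above both control values in 48.5% and below them in 14% of the regions. Of the 11 regions in the loci that all 4 lists called, 10 were among these 72, and 7 were among the 47 of lower summit coverage. Because the loci were chosen after their values were seen, these overlaps are partly built in. Chromosome 10 had the largest share of the 47, 10 (21.3%), against 5.84% of the regions called in all 4 lists. It is named for that share, and the 10 include regions of its chosen locus, which are neighbours. An excess over the rest of the chromosome is thus not shown.

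The organelle genomes differed in the same direction. At chloroplast peaks the median local background was 3.19 and 3.37 times the genome background at 3 h and 8.06 and 7.51 in control leaves, and 8.09 and 8.23 at 12 h. At mitochondrial peaks it was 1.61 and 1.77 at 3 h and 4.26 and 3.74 in control leaves, and 3.31 and 1.796 at 12 h. In both organelles the 3 h libraries were below the control libraries without overlap, with an exact p of 0.333. Organelle DNA carries no histones. Rice nuclear chromosomes hold copies of organelle DNA. Whether the 4 loci are such copies, and the part of the organelle coverage in their values, was not tested.

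**Figure D5:**
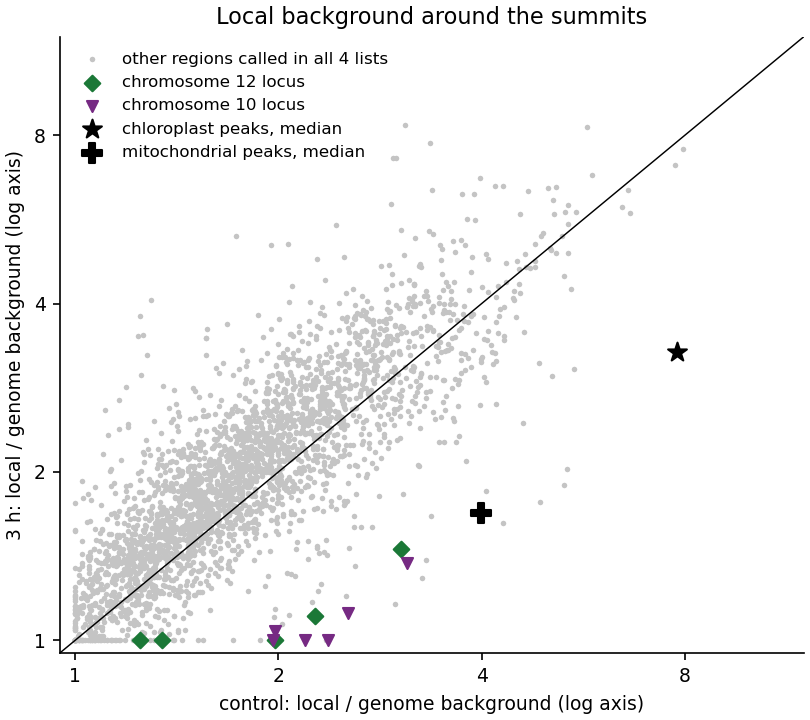
Local background around the summit over genome background, geometric mean of the 2 libraries at 3 h (vertical axis) and of the 2 control libraries (horizontal axis), both on log scales, 1 point per region called in all 4 lists, with the line of equal values; green diamonds and purple triangles are the regions of the chromosome 12 and chromosome 10 loci, the star and the cross the medians at chloroplast and mitochondrial peaks. The regions of both loci and both organelles lie below the line, while most other regions lie above it.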

How the data were processed

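The submitters' processing notes name MACS2 2.1.0, Bowtie 1.1.2, Trimmomatic 0.33 and bcl2fastq 2.17, and the rice build IRGSP-1.0. Their parameters, and whether an input was used, are not stated there. The authors deposited 1 narrowPeak list per library, with the summit's fold enrichment (a ratio over the local background), −log10 p and −log10 q; the lowest −log10 q deposited was 1.301, a q of 0.05. The lists were called per library. The RefSeq sequence names were read as chromosomes 1 to 12, and organelles and scaffolds were left out of the comparisons.

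Summits of 1 interval were joined, and the highest fold was kept. Coverage and local background were recovered from fold and p as the whole number that gives the deposited −log10 p within 0.001, found for 100% of the peaks. Coverage is the highest over a region's summits, and local background is that of the summit of highest fold. The genome background is the lowest local background of a list. limma 3.58.1 tested the 2896 regions, with Benjamini-Hochberg adjustment over all of them, and was checked on simulated data. Named regions have groups that do not overlap and the smallest p (8 per direction for rank and coverage, 6 for width), or, for regions of 1 group, the highest lower-of-2 percentile (10 at 3 h, 8 in control). The members, lists and tests were chosen with earlier results of these data known; summit coverage, local background and the 4 loci were added after seeing the files. Nearest genes, gene lists, markers of the tissue and sequence motifs were planned and not analysed here. Peak calls carry no interval for counting error, and 2 libraries a group limit the precision.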

Additional observations from a re-analysis of the deposited data

Results flagged for a closer look

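Peaks on unplaced scaffolds, which entered no comparison, numbered 10 and 11 in the 3 h lists and 6 and 7 in the control lists. The mean was 10.5 at 3 h, above 6.5 in control leaves, but the 3 h lists were also longer. As a share of all listed peaks the order was reversed, with 0.0816% at 3 h and 0.120% in control leaves.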

How the results depend on the processing

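Regions called only at 3 h numbered 3376, 1501 with a −log10 q of at least 5, 564 with lists of equal length, 3266 with the same p limit in all lists, and between 4120 and 6770 with 1 library left out. Regions called only in control leaves numbered 93, 544 with lists of equal length, and between 163 and 461 with 1 library left out. Leaving out a library loosens the rule for both of these classes, so their higher counts are built in. Rank calls were 0 higher, and 6 higher without the first control library. Width calls were 0, with 10 higher and 1 lower at a −log10 q of at least 5. Higher summit coverage was called at 283 regions, at 19 with centred lists, at 70 with a −log10 q of at least 5, and between 0 and 711 with 1 library left out. Lower summit coverage was called at 47 regions, at 28 with lists of equal length, at 67 with centred lists, and between 0 and 52 with 1 library left out. The log2 ratio of regions per list was 1.20 and ranged up to 1.45, and no single value changed its sign under any alternative run, but centring turned the balance of the coverage calls, with 85.8% of them higher at 3 h before it and 22.1% after it. Among single named regions, 31 values lost the adjusted p limit, each with a 3 h library left out, and 3 gained it. With the replicate number as a block in limma, rank and width gave 0 calls (smallest adjusted p 0.0790 and 0.182). Summit coverage in that fit was called higher at 342 regions and lower at 57. The deviations of same-numbered libraries correlated at -0.017 to -0.036. The labels do not say whether same-numbered libraries were handled together. The share of regions over a gene start was not run under any setting. With no read totals, what depth limits is known only through the genome background, and a mark below the call limit of a list was not detectable.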
